A study of Mus musculus with 12 samples.

Results

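Intermediate filament genes were followed in the tumour cells of 6 mouse mammary tumours: the keratins Krt7, Krt8, Krt18, Krt19, Krt14, Krt17, Krt6a and Krt5, and vimentin (Vim). These 9 genes were chosen by name, with no cutoff on a measured value, out of 19369 genes in the tables of the Total libraries. Earlier results of these data were known when they were chosen. They were measured in the cells that the authors annotated as tumour in those 6 libraries, summed per tumour and cell by cell, and the other annotated classes of the same libraries served as background. The tumours grew in the mammary fat pad of female BALB/c mice, with an age of 9 to 11 weeks in the labels, from the mouse triple-negative breast cancer line 4T1. Clone E, Clone EM1, Clone EM2, Clone EM3 and Clone M each descend from 1 cell of that line, and Parental 4T1 is the line itself. No group carried a drug, a transgene or an edited allele, per the labels. The design text places the 5 clones between epithelial and mesenchymal states but does not give the state of each. There was 1 tumour per group, so no difference between tumours has a replicate error, no test was made and no p-value was computed. Intervals are 95% intervals of counting error only, exact Poisson for summed counts and exact Clopper-Pearson for shares of cells.

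Intermediate filaments are rope-like polymers that give cells mechanical strength. Keratins form them only as pairs of a type I chain (Krt14, Krt17, Krt18, Krt19) with a type II chain (Krt5, Krt6a, Krt7, Krt8). Krt8 with Krt18 is the pair of simple, luminal-type epithelia, Krt5 with Krt14 that of basal cells of stratified and mammary epithelium. Vimentin polymerises with itself and is the filament of fibroblasts, endothelium, leukocytes and other mesenchymal cells. Loss of keratins and gain of vimentin is a textbook sign of epithelial-mesenchymal transition, in which epithelial cells take on mesenchymal traits, and carcinoma cells can hold both filaments.

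The type II genes Krt7, Krt6a, Krt5 and Krt8 lie on mouse chromosome 15, and the type I gene Krt18 lies beside Krt8 there, with 23.9 kb between the starts of both genes, which are read in opposite directions. Krt19, Krt14 and Krt17 lie in the type I cluster on chromosome 11, and Vim lies on chromosome 2 (RefSeq, GRCm38.p6, the same assembly as the mm10 build that the submitters' processing notes name). The 250 bases before the start are printed for Vim, for the neighbours Krt8 and Krt18, which were both lowest in M and EM3, and for Krt7, which parted from them. Of the 9 genes, 6 had an entry in the RefSeq promoter table, and those of Krt14 and Krt5 are not shown. The keratins shown were picked by their expression and do not stand for the keratins as a set. Capitals mark CACCTG or its reverse complement CAGGTG, the E-box bound by Snail and Zeb repressors, searched on both strands, and the TATA box TATAAA, searched on the strand of the gene. An E-box of these letters occurs in 17.2% of the 32851 promoter windows of this length and TATAAA in 7.59%, and the motifs do not overlap in these windows. A match describes the letters of the window and is no evidence of binding.
Krt8, minus strand, chr15:102004343-102004592: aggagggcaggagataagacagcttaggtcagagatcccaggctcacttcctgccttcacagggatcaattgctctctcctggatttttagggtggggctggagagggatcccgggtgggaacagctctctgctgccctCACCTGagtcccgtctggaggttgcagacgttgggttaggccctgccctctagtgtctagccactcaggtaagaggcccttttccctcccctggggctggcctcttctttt
Krt18, plus strand, chr15:102027966-102028215: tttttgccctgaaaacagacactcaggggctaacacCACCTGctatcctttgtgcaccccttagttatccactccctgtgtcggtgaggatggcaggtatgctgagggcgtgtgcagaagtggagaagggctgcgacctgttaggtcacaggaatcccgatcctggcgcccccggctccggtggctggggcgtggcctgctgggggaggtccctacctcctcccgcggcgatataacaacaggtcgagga
Krt7, plus strand, chr15:101412153-101412402: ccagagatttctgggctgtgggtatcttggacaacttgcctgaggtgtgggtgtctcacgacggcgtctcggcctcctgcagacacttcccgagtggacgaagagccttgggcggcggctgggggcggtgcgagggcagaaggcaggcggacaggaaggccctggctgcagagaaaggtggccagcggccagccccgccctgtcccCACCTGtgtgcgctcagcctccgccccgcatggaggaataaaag
Vim, plus strand, chr2:13574061-13574310: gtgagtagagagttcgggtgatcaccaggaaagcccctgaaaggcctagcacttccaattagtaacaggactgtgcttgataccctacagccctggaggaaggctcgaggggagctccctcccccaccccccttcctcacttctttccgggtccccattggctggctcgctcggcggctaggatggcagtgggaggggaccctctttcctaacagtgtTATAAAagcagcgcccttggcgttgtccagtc
The 3 keratin windows each held 1 E-box, beginning 111 bases before the start in Krt8, 214 in Krt18 and 44 in Krt7, and none held TATAAA. The Vim window held no E-box of these letters and 1 TATAAA, 32 bases before the start.

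After doublets had been left out, 19475 of 60657 cells of the Total libraries were tumour cells, between 793 in Clone E and 5899 in Parental 4T1, with 262238485 UMIs (unique molecular identifiers, the tags by which single RNA molecules are counted). Median depth per tumour cell was lowest in Clone E, at 6492 UMIs, and 9656 to 15241 in the other tumours. The median mitochondrial share was 1.79% of UMIs in Clone E against 0.252% to 0.549% elsewhere. The first 16 barcode bases, which mark the droplet, were shared by 1434 barcodes between E and EM3 and by 906 between EM1 and EM2, against 85 to 211 in the other 13 pairs of tumours, while between 0 and 189 whole barcodes coincided in a pair. No label states which tumours were captured together. By this count alone E and EM3 appear to share a capture, and EM1 and EM2 another. In every other comparison below, such as Clone M against Clone E, the capture and the clone cannot be told apart. Epithelial markers outside the keratins (Epcam, Cdh1, Cldn3, Cldn4, Cldn7) summed to 7721 CPM in Clone E tumour cells but to 24.7 CPM in Clone EM3, where 1 of the 5 passed 10 CPM. CPM is the UMI count of a gene per 1000000 UMIs of the same cells. Leukocyte markers summed to 360.4 CPM in Clone E tumour cells and 42.6 to 111.9 CPM elsewhere, and a UMI of Ptprc, the CD45 gene, was found in 12.9% of Clone E tumour cells against 3.70% to 6.78% elsewhere. Fibroblast markers summed to 208.0 to 328.3 CPM in all 6 tumours, but genes of the list differed in direction. Col1a1 was at 104.1 CPM in E against 21.8 to 55.6 elsewhere, and Pdgfra at 35.7 in E against 74.0 to 194.9 elsewhere. Whether these leukocyte and fibroblast marker transcripts came from other cells was not tested, nor was their part in the values below.

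The keratins differed unevenly between the tumours. The simple-epithelial pair Krt8 and Krt18 stayed within 2.55-fold and 1.78-fold over the 6 tumours. The highest tumour exceeded the lowest 68.4-fold in Krt19 and 89.4-fold in Krt7. From only 4 and 17 UMIs in the lowest tumour, EM3, it did so 744.6-fold in Krt17 and 846.4-fold in Krt14. Vim ran the other way, with Clone E alone at the low end. Krt7, Krt19, Krt14, Krt17, Krt6a and Krt5 were highest in Clone E under every scaling tried. Krt8 was highest there on the CPM scale but not with TMM or median-of-ratios scaling, described below, and Krt18 was level in 4 tumours. Between Clone M and Clone E, 6 of the 9 members were at least 2-fold lower in M (Krt7, Krt8, Krt19, Krt14, Krt17 and Krt6a), on a scale of log2(CPM + 10), and 1 was at least 2-fold higher (Vim). The Krt8 call ends under TMM scaling, at a log2 ratio of −0.94, and the Krt6a call ends at −0.17 when the cells with a UMI of Csn2, Elf5, Prlr or Wap, 32 of 793 in Clone E, are left out. Among the 5545 genes with at least 50 CPM in either tumour, 8.28% were that much lower in M and 6.64% that much higher, and with TMM scaling 4.89% lower and 18.6% higher. Between Clone EM3 and Clone E the same 6 keratins were lower and Vim higher, with 6.95% of 5321 genes lower and 3.78% higher, and with TMM scaling 3.89% and 13.4%. The Krt8 and Krt6a calls end under the same alternatives, at −0.58 and −0.18, and the Krt8 call under median-of-ratios scaling too, at −0.70. Krt6a and Krt5 were below 50 CPM in every tumour, so that Krt6a lies outside the genes behind these percentages, and Krt14 and Krt17 passed the minimum through Clone E alone. Krt19 did so too in the comparisons of M, EM3 and EM1 with E, and Krt7 in that of EM3 with E. A gene that passes only through its higher tumour was let in by being high there, so these counts describe the members and support nothing further. Against the same Clone E tumour, 4 members were lower in EM2 (Krt7, Krt19, Krt14 and Krt17), beside 6.37% of all tested genes, and those 4 with Krt6a were lower in EM1, beside 5.32%, and in Parental 4T1, beside 6.71%. With TMM scaling the Krt7 and Krt6a calls end in both, Krt7 at −0.62 in EM1 and −0.83 in Parental 4T1, and 3 members are left. The same calls end with median-of-ratios scaling, Krt7 at −0.83 in EM1 and −0.93 in Parental 4T1. Without the cells with mammary markers Krt6a is at −0.19 in EM1 and −0.12 in Parental 4T1. Vim alone was 2-fold higher in EM2, EM1 and Parental 4T1, beside 3.7%, 3.82% and 2.95% of genes, and with TMM scaling beside 17.4%, 16.2% and 9.67%. These 5 comparisons share the Clone E tumour, so they are not independent of each other.

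The comparisons without Clone E held fewer such members. Krt19 and Krt14 were at least 2-fold lower in M than in Parental 4T1, beside 2.06% of all tested genes, and no member was higher, beside 2.35%. Krt19 was lower in EM1 than in EM2, beside 1.11% of genes, and no member was higher, beside 1.87%. Krt7, Krt19 and Krt14 were lower in EM3 than in EM2, beside 1.45%, and no member was higher, beside 0.715%. Between M and EM3 no member was lower in M, beside 2.35%, and Krt7 was higher, beside 2.2%. Krt14 was below 50 CPM in EM3, EM2, M and Parental 4T1, outside the genes behind these percentages. In these comparisons too Krt19 and the Krt7 of EM3 passed the minimum only through the higher tumour. Over all 6 tumours 7 of the 9 members, Krt6a among them, had a highest value at least 2-fold above the lowest, beside 25.2% of 5832 genes, and Krt7 and Krt14 one at least 32-fold above, beside 0.171%, again on the scale of log2(CPM + 10).

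**Figure D1:**
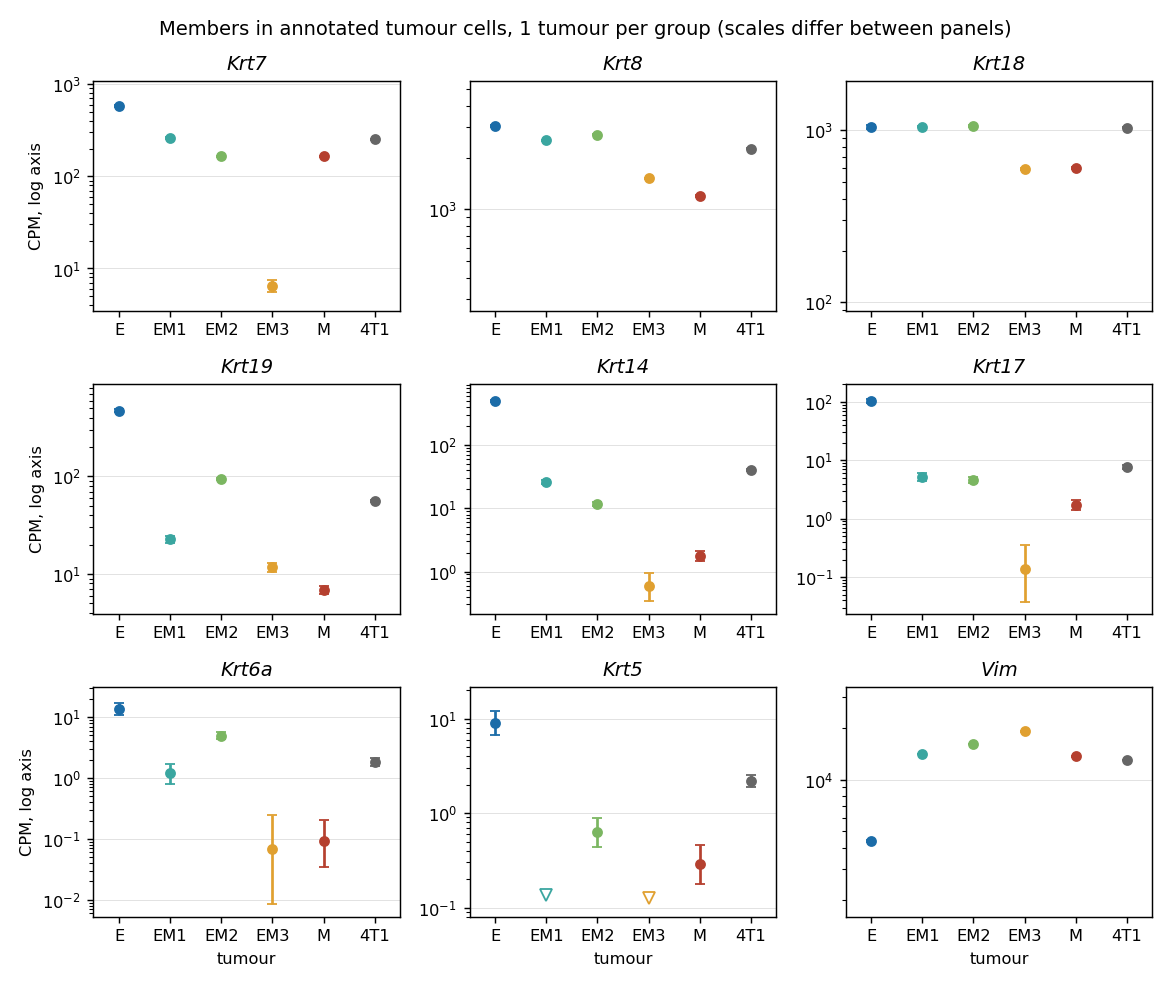
CPM of each member in the annotated tumour cells of each tumour, on log axes that differ between panels. Points are 1 tumour each, bars are exact Poisson 95% intervals, and open triangles mark the upper limit where no UMI was counted. Clone E is highest for Krt7, Krt8, Krt19, Krt14, Krt17, Krt6a and Krt5 and lowest for Vim, and Krt7 is at 6.48 CPM in Clone EM3.

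Krt8, the type II chain of simple epithelia, was at 3048 CPM (3001 to 3095) in Clone E, 2716 (2702 to 2730.5) in EM2, 2515 (2496 to 2534) in EM1, 2249.8 (2239.8 to 2259.9) in Parental 4T1, 1512 (1498 to 1526) in EM3 and 1196 (1187 to 1204) in M. No neighbouring intervals in this order overlapped. Clone M stood lowest and EM3 next, and the other 4 tumours lay close together above them. The log2 ratio over Clone E was −1.34 in M and −1.01 in EM3. Both are near the 2-fold line, and scaling by TMM (trimmed mean of M-values, edgeR), which divides the Clone E value by 1.29, took Clone E out of the first place: Krt8 was then 2362 CPM in E, 2802 in EM1 and 2990.3 in EM2. Under TMM the ratios over E were −0.94 in M and −0.58 in EM3, so that neither reached 2-fold. With median-of-ratios scaling Krt8 of EM2 and EM1 also lay above E, at log2 ratios of 0.16 and 0.03. The ratio over E was then −1.14 in M and −0.70 in EM3. TMM raised the median log2 ratio of all tested genes of M over E from 0.11 to 0.52, and median-of-ratios scaling raised it to 0.32.

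Krt18, the type I partner of Krt8, had 1061 CPM (1052 to 1069.9) in EM2, 1051 (1039 to 1064) in EM1, 1047 (1020 to 1075) in E and 1038 (1031 to 1045) in Parental 4T1, with overlapping intervals between neighbours. It had 605.6 CPM (599.6 to 611.6) in M and 595 (586.1 to 604.0) in EM3, whose intervals also overlapped. The 6 tumours thus fell into 4 at one level and 2 at a lower one, 1.78 times apart between EM2 and EM3. With TMM scaling Clone E moved to 811.5 CPM, between both levels, while M and EM3 lay at 621.9 and 622.4. The number of Krt8 UMIs per Krt18 UMI, which needs no scaling, was 2.91 in E, 2.56 in EM2, 2.54 in EM3, 2.39 in EM1, 2.17 in Parental 4T1 and 1.97 in M. Relative to its partner, Krt8 was thus highest in Clone E and lowest in Clone M.

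Krt7, a type II chain of glandular and ductal epithelia, was nearly absent from 1 clone. It had 579.2 CPM (559.0 to 600.03) in E, 258.3 (252.3 to 264.5) in EM1, 253.1 (249.8 to 256.5) in Parental 4T1, 164.5 (161.0 to 168.1) in EM2, 164.0 (160.9 to 167.1) in M and 6.48 (5.58 to 7.48) in EM3. The intervals overlapped between EM1 and Parental 4T1 and between EM2 and M. Clone EM3 was 89.4-fold below Clone E, with which it shared the most barcode starts, and 25.3-fold below Clone M. Of the 5035 genes with at least 50 CPM in EM3 or EM2, Krt7 had the lowest log2 ratio of EM3 over EM2, at −3.40. Krt8 and Krt18, by contrast, differed between M and EM3 by log2 ratios of −0.34 and 0.02. At 2000 UMIs per cell Krt7 was seen in 1.31% (0.848 to 1.92) of EM3 cells, 23.2% (22.0 to 24.4) of M cells and 52.8% (49.1 to 56.5) of E cells. The other 7 classes of the EM3 library had 0 to 2.80 CPM of Krt7.

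Krt19, a small type I chain of ductal cells, had 471.7 CPM (453.5 to 490.5) in E, 93.6 (91.0 to 96.3) in EM2, 56.2 (54.6 to 57.8) in Parental 4T1, 22.7 (21.0 to 24.6) in EM1, 11.8 (10.6 to 13.1) in EM3 and 6.90 (6.28 to 7.57) in M. No neighbouring intervals overlapped, and Clone E exceeded Clone M by 68.4-fold. These sums rested on few cells. The 1% of cells with most Krt19 UMIs held 38.7% of them in E, 54.2% in EM2, 43.3% in Parental 4T1 and 82.7% in EM1, against 4.10% to 7.41% for Krt8. Without those cells, a value chosen after the data had been seen, Krt19 was 292.5 CPM in E, 43.2 in EM2, 32.4 in Parental 4T1, 7.71 in EM3, 3.97 in EM1 and 1.85 in M. The order of EM1 and EM3 was then turned, and E stayed first and M last.

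Of the basal and stress-response keratins, Krt14 and Krt17 were far higher in Clone E than in the other tumours. Krt14, the type I chain of basal cells, had 498.5 CPM (479.8 to 517.9) in E, 40.9 (39.5 to 42.3) in Parental 4T1, 26.4 (24.5 to 28.5) in EM1, 11.9 (10.9 to 12.8) in EM2, 1.79 (1.48 to 2.14) in M and 0.589 (0.343 to 0.943) in EM3. That is 12.2-fold more in Clone E than in the next tumour, 279.0-fold more than in M and 846.4-fold more than in EM3, with no overlap of neighbouring intervals. In Clone E the transcript was spread over more cells than in Parental 4T1, with a UMI in 37.0% (33.5 to 40.6) of cells at 2000 UMIs. The top 1% of Clone E cells held 14.1% of its UMIs and the top 10% held 61.5%, against 39.2% of Krt8 UMIs in the top 10%. In Parental 4T1 4.57% (4.04 to 5.14) of cells had a UMI and the top 1% held 47.2% of the UMIs. Krt17, a type I chain of basal and wounded epithelium, followed the same course at 103.2 CPM (94.8 to 112.2) in E, 7.55 in Parental 4T1, 5.23 in EM1, 4.59 in EM2, 1.71 in M and 0.139 in EM3, the last from 4 UMIs. The intervals of EM1 and EM2 overlapped.

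Krt6a, a type II chain induced in wounded epithelium, and Krt5, the type II partner of Krt14, were scarce. Krt6a had 13.7 CPM (10.7 to 17.2) in E from 73 UMIs in 11 cells, 4.99 in EM2, 1.83 in Parental 4T1, 1.19 in EM1 from 32 UMIs in 1 cell, 0.0924 in M and 0.0693 in EM3. Krt5 had 9.01 CPM (6.64 to 11.9) in E from 48 UMIs in 5 cells, 2.21 in Parental 4T1, 0.633 in EM2 and 0.293 in M, and no UMI in EM1 and EM3, where a count of 0 allows up to 0.111 and 0.104 CPM if 3 counts are taken as the limit (exact Poisson upper limits 0.137 and 0.128). In Clone E 427 cells had a UMI of Krt14 and 5 had one of its usual partner Krt5, but the genes may be captured with unequal efficiency, so this does not compare their levels. Near-identical paralogs, Krt6b for Krt6a and Krt16 for Krt14 and Krt17, may share counts with these genes, since the rule for reads that match several genes is not given in the sources used here.

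Vim, the mesenchymal filament, was at 19057 CPM (19006 to 19107) in EM3, 16040.3 (16005 to 16075) in EM2, 14029.8 (13985 to 14075) in EM1, 13612 (13584 to 13641) in M, 12998 (12974 to 13022.5) in Parental 4T1 and 4413 (4356 to 4469) in Clone E. No intervals overlapped. The other 5 tumours lay close together, and the lowest of them exceeded Clone E 2.95-fold. The log2 ratio over Clone E was 1.56 in Parental 4T1, 1.62 in M, 1.67 in EM1, 1.86 in EM2 and 2.11 in EM3, all of which share the Clone E tumour. Both alternative scalings enlarged the M over E ratio, to 1.83 with median-of-ratios and 2.03 with TMM factors. Clone M, with the least Krt8, did not have the most Vim: EM3 exceeded it 1.40-fold, and Clone M exceeded Parental 4T1 1.05-fold.

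The share of Vim among the UMIs of all 9 members is a composition that needs no scaling between libraries. Genes may be captured with unequal efficiency, so it compares tumours and not genes. It was 43.3% (42.9 to 43.8) in Clone E, 78.1% (78.0 to 78.1) in Parental 4T1, 78.3% (78.2 to 78.5) in EM1, 79.8% (79.7 to 79.9) in EM2, 87.3% (87.3 to 87.4) in M and 89.96% (89.9 to 90.04) in EM3. EM1, EM2 and Parental 4T1 lay together between Clone E and the pair of M and EM3. Cell by cell, in cells with at least 10 UMIs of the members, the same share had a median of 43.4% in Clone E with an interquartile range of 38.8 percentage points. The medians were 90.9% in EM3, 89.2% in M, 80.7% in EM2, 79.5% in EM1 and 79.2% in Parental 4T1, with interquartile ranges of 9.15 to 15.3 points. In Clone E 58.2% of these cells had a share under 50%, against 0.258% in EM3, 0.432% in M, 1.22% in EM2, 1.97% in EM1 and 4.46% in Parental 4T1. At the other end, 55.1% of EM3 cells and 45.3% of M cells had a share over 90%, against 1.14% of Clone E cells. The median cell of Clone E had 52 UMIs of the members and that of EM3 had 299, so counting noise widens the spread more in Clone E. The part of that noise in the width was not tested.

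**Figure D2:**
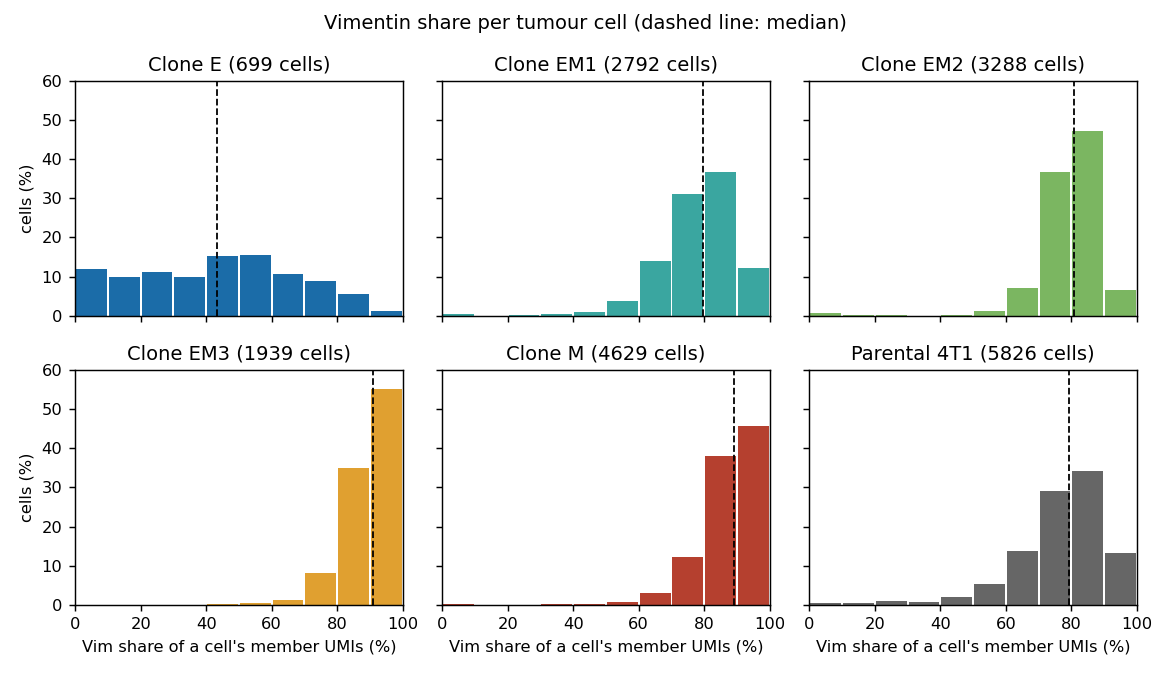
Distribution over tumour cells of the Vim share of the UMIs of the 9 members (x axis, percent, bins of 10) with the share of cells in each bin (y axis, percent), 1 panel per tumour, in cells with at least 10 such UMIs. Dashed lines mark medians. Clone E is spread over the whole axis, and the other 5 tumours form 1 peak above 70%.

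Transcripts of both filaments were found in most tumour cells, with no correction for free RNA. With every cell thinned to 2000 UMIs, at least 1 keratin UMI and at least 1 Vim UMI were found in 98.3% (97.8 to 98.7) of cells in EM2, 97.2% (96.5 to 97.8) in EM1, 96.7% (96.2 to 97.1) in Parental 4T1, 88.6% (87.1 to 89.99) in EM3, 87.8% (85.2 to 90.1) in E and 85.6% (84.5 to 86.6) in M. Thinning left out 230 cells of Parental 4T1, 109 of EM1, 66 of E, 50 of M, 48 of EM2 and 36 of EM3. Clone E, EM3 and M had the lower shares, and they fell short in opposite ways. Cells with keratin and no Vim made up 10.2% (8.08 to 12.6) of Clone E and at most 0.306% of any other tumour, and none of 1912 cells of EM3, which allows a share of up to 0.157% at 3 counts (exact upper limit 0.193%). Cells with Vim and no keratin made up 14.4% (13.4 to 15.5) of M, 11.4% (10.0 to 12.9) of EM3, 3.14% of Parental 4T1, 2.72% of EM1, 1.93% of E and 1.38% of EM2. Without thinning the share with both was 95.8% in E, 98.2% in EM3, 98.8% in M and 98.7% to 99.6% in the others, so the cells with Vim alone at 2000 UMIs are in large part cells in which a keratin UMI appears at full depth. The cells with keratin alone in Clone E depend on depth as well, since without thinning a Vim UMI was found in 96.6% of its tumour cells. With at least 3 UMIs of each, the shares spread further, to 89.4% in EM2, 83.3% in EM1, 81.6% in Parental 4T1, 58.6% in EM3, 58.2% in E and 53.2% in M.

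The same count in other cells gives the background. Among macrophages, 10.7% (M) to 32.4% (Parental 4T1) of cells had both a keratin and a Vim UMI at 2000 UMIs. The keratin UMIs were 2.46% to 27.7% of the tumour-cell level in CPM over the 5 immune classes of the 6 tumours. Where these keratin UMIs came from was not tested. In T and NK cells of Parental 4T1 65.1% of 83 cells had both, after 624 shallower cells had been left out, at a median of 2471 UMIs before thinning against 13348 in the tumour cells. Krt8 UMIs per Krt18 UMI were 2.57 in macrophages and 2.91 in tumour cells of E, 2.28 and 2.56 in EM2, 2.26 and 2.54 in EM3, 1.85 and 1.97 in M, 1.72 and 2.17 in Parental 4T1 and 2.46 and 2.39 in EM1, lower in macrophages in 5 of the 6 libraries. Krt8 in granulocytes ranged from 167.7 CPM in M to 557.7 in Parental 4T1. A keratin UMI in a cell thus does not by itself set a tumour cell apart. Summed per class, Krt8 in the immune classes was 2.46% to 24.8% of that in the tumour cells of the same library. Whether the level parts single cells was not tested.

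Vim has a higher background than the keratins, since it is made by most host cells. Over the 5 immune classes of the 6 tumours it was at 14.6% to 118.1% of the tumour-cell level, against 2.46% to 27.7% for the summed keratins. In the Clone E library, Vim had 4413 CPM in tumour cells, below the 5213 of macrophages, 5157 of dendritic cells, 6904 of fibroblasts and 12101 of endothelial cells, and above the 2675 of T and NK cells, 2197 of granulocytes and 1629 of B cells. In the other 5 libraries tumour cells had more Vim than every immune class and than fibroblasts, and endothelial cells had 100.3% of the tumour-cell level in EM2 to 150.03% in EM1.

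**Figure D3:**
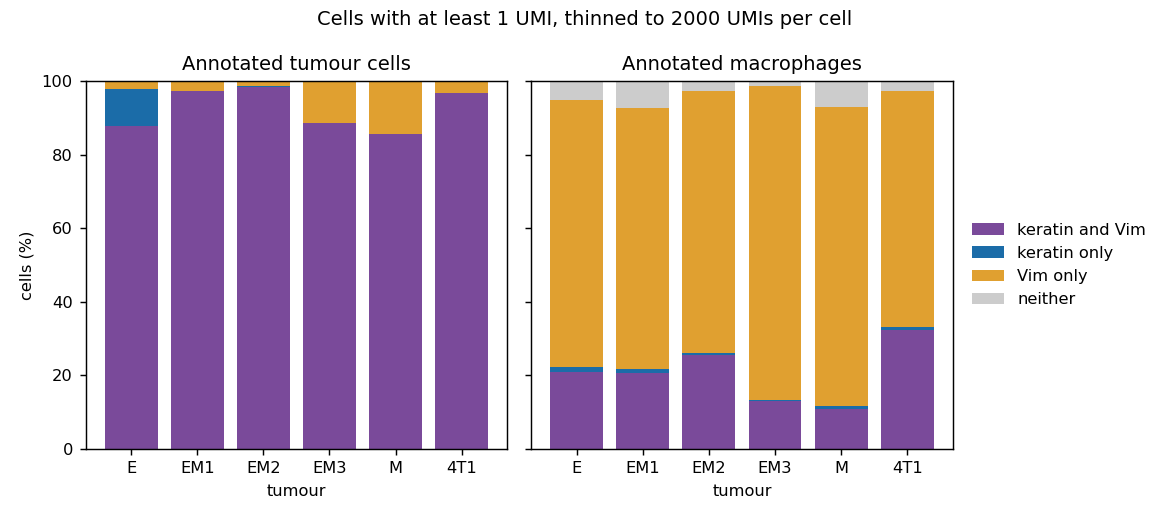
Share of cells (y axis, percent) with at least 1 keratin UMI and at least 1 Vim UMI, keratin only, Vim only or neither, after thinning each cell to 2000 UMIs, in annotated tumour cells (left) and in macrophages as background (right) of each tumour. Cells with keratin only are visible in Clone E at 10.2%, and macrophages with both reach 32.4% in Parental 4T1.

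**Figure D4:**
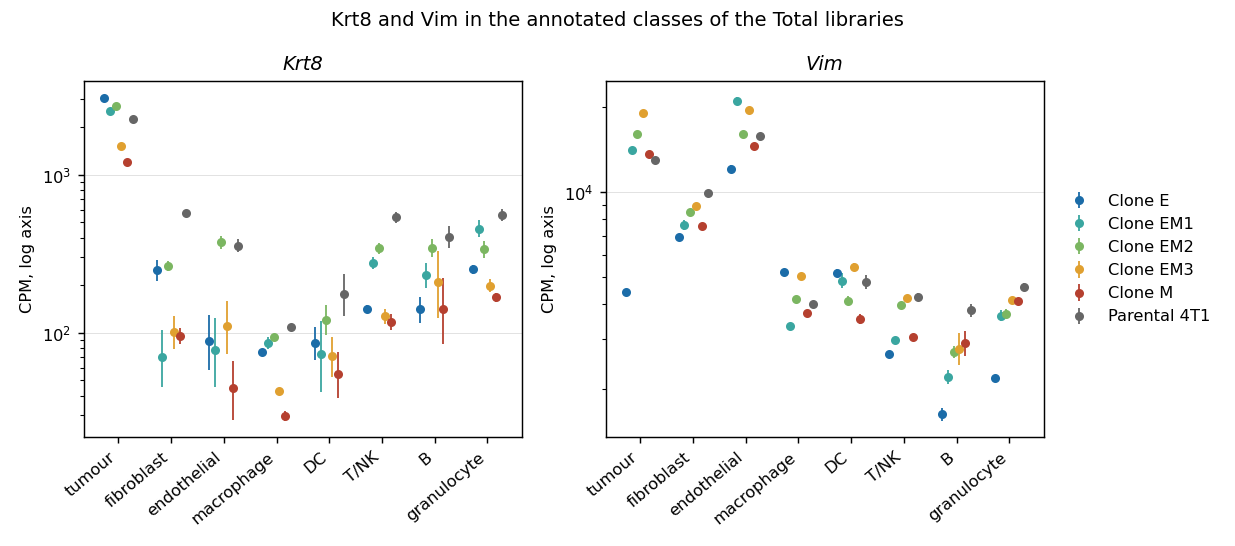
CPM of Krt8 (left) and Vim (right) on log axes in the annotated classes of the 6 Total libraries. Points are 1 tumour each and bars are exact Poisson 95% intervals. Krt8 is highest in tumour cells of every library, whereas Vim in the tumour cells of Clone E, at 4413 CPM, lies within the range of the host classes.

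Within tumours the summed keratins, most of them Krt8 and Krt18, were weakly and positively related to Vim from cell to cell. After thinning, Spearman's rho between the summed keratin UMIs and the Vim UMIs was 0.34 in M (4609 cells), 0.33 in EM2 (3266), 0.31 in EM1 (2753), 0.24 in EM3 (1912), 0.14 in Parental 4T1 (5669) and 0.10 in E (727). All 6 values were above 0, and those of E and Parental 4T1 were the smallest. They describe cells of 1 library each, which share its depth and its free RNA, and rho between the keratin sum and the UMIs of the cell before thinning reached 0.30 in E. In Parental 4T1 rho with Vim was 0.16 for Krt8 and 0.09 for Krt18 but −0.08 for Krt14, −0.06 for Krt17, −0.05 for Krt7 and −0.03 for Krt19, so the sign of the sum was not that of every keratin. The partners Krt8 and Krt18 had the highest rho among the pairs of keratins in each tumour, from 0.36 in EM2 to 0.52 in E. Krt14 and Krt17 had 0.25 in E and 0.09 in Parental 4T1. Cells of Clone E with a Krt14 UMI had a mean of 9.14 Vim UMIs against 7.31 in cells without one, while in Parental 4T1 the means were 20.3 and 25.3. Krt17 went alike in Parental 4T1, with 15.96 Vim UMIs in its 47 cells against 25.2 in the rest.

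Some tumour cells had keratins with hardly any Vim. A Vim share under 10% was found in 83 cells of Clone E, 29 of Parental 4T1, 26 of EM2, 9 of EM1, 6 of M and none of EM3. That is 11.9% of the Clone E cells with at least 10 UMIs of the members. It is 0.498% in Parental 4T1, 0.791% in EM2, 0.322% in EM1 and 0.130% in M. A share of 10% to 20% was found in 69 cells of Clone E, 25 of Parental 4T1, 2 of EM2 and 1 each of EM1 and M. In Clone E the cells under 10% are thus the low end of a wide spread. By the way they were chosen the cells under 10% are low in Vim and rich in keratin, so only genes outside the members tell more about them. In Clone E their epithelial marker sum was 13834 CPM against 6962 in the other cells. In EM2 it was 22611 against 163.8 CPM, in EM1 19825 against 877.4, in Parental 4T1 14461 against 660.1 and in M 12682 against 156.3. The list of normal mammary gland genes (Csn2, Csn3, Wap, Elf5, Prlr) summed to 234.2 against 3.60 CPM in Clone E, 826.8 against 1.67 in EM2, 1229 against 2.20 in EM1, 313.1 against 6.34 in Parental 4T1 and 3763 against 100.3 in M, with Wap at 0 in the low-Vim cells of all 5 tumours. Prlr, the prolactin receptor, led the list in 4 of them, at 124.9 CPM in E and 695.5 in EM2, and Csn3, a milk casein, led it in M at 3042. Csn3 was at 99.7 CPM in the other cells of M. Csn2 too was at 0 in the low-Vim cells of EM1, EM2 and Parental 4T1, and Elf5 in those of EM1. As sums, both lists were thus higher in the low-Vim cells than in the other cells in all 5 tumours. Their leukocyte marker sum was 364.8 against 59.6 CPM in the other cells of EM2, 261.0 against 65.6 in Parental 4T1, 103.1 against 80.0 in M, 41.7 against 42.0 in EM1 and 215.4 against 373.3 in E. The skin keratinocyte list (Krt1, Krt10, Lor, Krtdap, Sbsn) summed to 229.1 against 7.80 CPM in EM1, 141.0 against 11.7 in EM2, 69.6 against 10.6 in Parental 4T1 and 37.5 against 12.4 in E, most of it Sbsn, and to 0 against 8.62 in M. The part of these lists in the keratin values of the low-Vim cells was not tested.

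The keratins of these cells are a description only, since the choice of the cells used them. The low-Vim cells held 65.7% of all Krt19 UMIs of Clone E, 71.8% of EM1, 51.4% of EM2, 30.1% of Parental 4T1 and 27.9% of M. Of the Krt6a UMIs they held 97.3% in E, 100.0% in EM1, 95.6% in EM2, 72.6% in Parental 4T1 and none of the 6 in M, and of the Krt14 UMIs of Clone E 14.5%. Leaving out every tumour cell with a UMI of Csn2, Elf5, Prlr or Wap, which is 100 cells of Parental 4T1, 36 of EM2, 32 of E, 30 of M and 5 each of EM1 and EM3, lowered Krt19 from 471.7 to 214.3 CPM in E, from 22.7 to 10.2 in EM1 and from 93.6 to 46.6 in EM2. Krt6a went from 13.7 to 1.37 CPM in E and from 4.99 to 0.200 in EM2. Krt14 in E was 515.5, Krt8 2782, Krt7 551.1 and Vim 4525 CPM without them. The log2 ratio of Krt6a over Clone E was then −0.17 in M and −0.18 in EM3, and that of Krt8 −1.22 in M and −0.88 in EM3, so 5 members stayed at least 2-fold lower in M and 4 in EM3. This set was chosen after the data had been seen. Whether these cells belong to the implanted line or to the host gland was not tested.

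**Figure D5:**
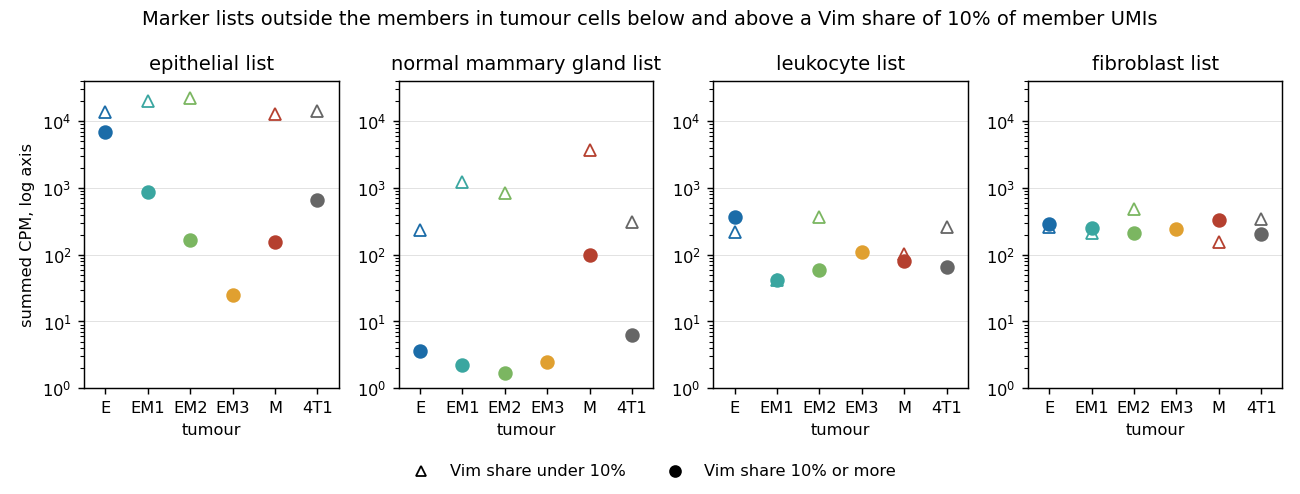
Summed CPM (log axis) of 4 marker lists that hold no member, in tumour cells with a Vim share under 10% of member UMIs (open triangles) and in the other cells (filled circles), by tumour. The epithelial list reaches 22611 CPM in the low-Vim cells of EM2 against 163.8 in the rest, and the mammary list 826.8 against 1.67. EM3 has no low-Vim cell.

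Most other intermediate filament genes were scarce. Of 58 further genes, 36 never reached 1 CPM in a tumour and 4 reached 50 CPM. Krt16, a type I chain of wounded epithelium and paralog of Krt14 and Krt17, had 116.1 CPM in E, 103.2 in Parental 4T1, 44.6 in EM2, 19.2 in EM1, 6.02 in M and 5.89 in EM3. Unlike Krt14 and Krt17 it was nearly as high in Parental 4T1 as in E. The nuclear lamin gene Lmna ranged from 3999 CPM in E to 6001 in EM3, Lmnb1 from 87.2 in EM1 to 137.1 in M, and Nes, the nestin gene, from 52.9 in E to 87.3 in EM3. Of the 58 genes 4 were at least 2-fold lower in M than in E: Krt16 and, named after their values had been seen, Krt15, Krt78 and Krt88, with at most 22.7 CPM. None was 2-fold higher. Among all tested genes 8.28% were lower and 6.64% higher, so 4 of 58 does not set these genes apart. Those of the 58 under 50 CPM lie outside these percentages. Of the 4 that reached 50 CPM 1 was lower, Krt16, which was under 50 CPM in M and so passed the minimum through Clone E alone.

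Linkers that tie keratin to desmosomes and hemidesmosomes went with the keratins in part. Of 13 linkers and keratin organisers 8 were at least 2-fold lower in M than in E and none higher, and 8 were lower in EM3. Of the 9 that reached 50 CPM, 6 and 5 were lower, beside the 8.28% and 6.95% of all tested genes. With TMM scaling 5 of the 13 were lower in M, without Plec, Ppl and Evpl, and 6 in EM3, without Evpl and Fam83h. The median log2 ratio of the 9 was −1.36 for M over E and −1.10 for EM3 over E, against 0.11 and 0.02 for all tested genes. Of the 9, Dsp and Eppk1 were under 50 CPM in M, and these with Jup in EM3, so they passed the minimum through Clone E alone. Dsp, desmoplakin, the anchor of keratin at desmosomes, had 254.1 CPM in E, 128.3 in EM2, 93.2 in Parental 4T1, 75.6 in EM1, 11.2 in EM3 and 5.30 in M. Jup, plakoglobin, had 809.1 CPM in E, 374.5 in EM1, 249.8 in EM2, 222.1 in Parental 4T1, 117.4 in M and 44.5 in EM3. Eppk1, epiplakin, was at 159.7 CPM in E against 23.8 in M, and Pkp3, a plakophilin, at 214.7 against 73.5. Plec, plectin, which also binds vimentin, was lowest in M, at 505.4 CPM against 911.7 in EM3 and 1315 in E. Ppl, periplakin, lay at 87.9 CPM in M against 186.7 in E, a log2 ratio of −1.01. The spectraplakins Dst (358.8 to 560.8 CPM) and Macf1 (50.6 to 81.1 CPM) and the keratin organiser Fam83h (137.2 to 305.7 CPM) differed between M and E by less than 2-fold, and Fam83h was lower in EM3 than in E by a log2 ratio of −1.10.

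Of 17 transcription factors known to act on keratins or vimentin, 4 were at least 2-fold lower and 2 at least 2-fold higher in M than in E. Of the 8 that reached 50 CPM, 2 were lower and 2 higher, beside 8.28% and 6.64% of all tested genes, but both lower ones, Elf3 and Grhl2, passed the minimum through Clone E alone. The lower ones were the epithelial factors Ovol1 (49.7 CPM in E, 3.51 in M), Elf3 (86.7 and 14.9), Grhl2 (57.0 and 12.9) and Ovol2 (16.3 and 0.986). The higher ones were the repressor Snai1 (119.1 in E, 303.5 in M) and Twist1 (180.3 and 396.5), a driver of mesenchymal genes. In EM3 5 of the 17 were lower than in E, the same 4 and Ehf, and Twist1 alone was 2-fold higher, at 453.5 CPM, while Snai1 was at 181.8, a log2 ratio of 0.57. Of the 8 that reached 50 CPM, 2 were lower and 1 higher in EM3, beside 6.95% and 3.78% of all tested genes. With TMM and with median-of-ratios scaling Ehf was no longer 2-fold lower in EM3, and Zeb2 joined Twist1 as 2-fold higher. These calls were not particular to M and EM3. Against the same Clone E, Ovol1, Elf3, Grhl2 and Ovol2 were also lower in EM2 and EM1, beside 6.37% and 5.32% of tested genes. Elf3, Grhl2 and Ovol1 were lower in Parental 4T1, beside 6.71%, but with TMM scaling none was. Twist1 was also 2-fold higher in EM1, at 513.9 CPM, beside 3.82%. Here too Elf3 and Grhl2 passed the minimum through Clone E alone, and Ovol1 and Ovol2 lay below it. Klf4 and Klf5, keratinocyte factors, were not lower in M, at 1058 and 629.7 CPM against 546.0 and 400.2 in E, and with TMM scaling both were at least 2-fold higher in M.

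The genes most like a member over the 6 tumours were ranked by Pearson's r of log2(CPM + 10) among 5831 others. They are a description over 6 points with 1 of them, Clone E, apart from the rest in Krt14 and Vim. For Krt8 they were Slc38a1, Wdyhv1, Tmem63b, Dsp and Gatad2a, with r of 0.98 to 0.99, and among the members Krt18 had 0.94 and Vim −0.51. For Krt14 they were Cdh1 (E-cadherin), Rpia, Cdkn2aip, Esrp1 and Cgn, with r of 0.98 to 0.99, but Cdh1 alone of them stayed among the first 5 with a pseudocount of 1 CPM or with a minimum of 10 CPM. Cdh1 had 735.9 CPM in E, 51.9 in Parental 4T1, 25.8 in EM1, 24.3 in EM2, 4.08 in M and 3.15 in EM3. For Vim they were Pla2g4a, Eif2s2, Lix1l, Hadh and Hspa13, with r of 0.98 to 0.99, of which Pla2g4a, Eif2s2 and Lix1l stayed under both alternatives. Over single cells, by the median over the 6 tumours of Pearson's r of depth-scaled log2 counts, Vim was followed most closely by S100a10 (0.51), Crip1 (0.49), Lmna (0.48), Anxa2 (0.46) and S100a4 (0.42). The keratin sum was followed by S100a6 (0.43), S100a11 (0.42), S100a10 (0.40), Lmna (0.37) and Crip1 (0.37). S100a10, Lmna and Crip1 stand in both lists.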

How the data were processed

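Per the labels' protocols, tumours were digested and separated with CD45 beads, and cells were fixed; the protocols name both a fixed-RNA kit and 3′ reagents. Per the submitters' processing notes, Cell Ranger and mm10 were used. The authors deposited raw UMI counts per gene and cell, with cell classes and the mitochondrial percent and fraction of UMIs per cell, after a cell filter that the labels do not state. Here doublets were called by the Scrublet method in each of 12 libraries (2.01% of 115612 cells) and left out, counts of annotated tumour cells were summed per tumour, scaled to CPM, and compared as log2(CPM + 10). A gene was counted in a comparison from 50 CPM in either tumour. For shares of cells, cells were thinned to 2000 UMIs. TMM factors came from edgeR 4.0.16, on raw counts; no test was made. The procedures were tested on simulated data. The genes, lists and rules for named genes (all members, related genes from 50 CPM, the 6 regulators with the largest M over E ratio, the 5 most similar genes) were chosen with earlier results of these data known. The alternatives tried were other scalings, filters, pseudocounts, depths and limits.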

Additional observations from a re-analysis of the deposited data

Results flagged for a closer look

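Keratin transcripts were counted in the CD45 libraries, which no comparison above uses. These libraries hold cells enriched for CD45, the surface antigen of leukocytes, and 7 of the 8 keratins are in their gene tables, without Krt5. The summed keratins had 5.49 CPM in Parental 4T1, 4.95 in Clone E, 3.65 in EM2, 3.07 in EM1, 2.56 in M and 2.34 in EM3, each above the limit that a count of 0 allows, which was at most 0.109 CPM. That is 0.0791% to 0.150% of the keratin level in the tumour cells of the same tumour, and 0.838% to 2.14% of cells had a keratin UMI.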

How the results depend on the processing

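No paired analysis was possible because every group is 1 tumour and no test was made. Of 162 recomputed log2 ratios of M or EM3 over E none changed sign and 16 changed side of the 2-fold line. The number of members at least 2-fold lower than in E was 5 to 7 for M and 4 to 7 for EM3 over all settings. The share of cells with a keratin and a Vim UMI followed the depth: at 1000 UMIs it was 92.8% in EM2, 89.2% in EM1, 88.8% in Parental 4T1, 73.6% in E, 73.2% in EM3 and 70.6% in M, and at 4000 UMIs 99.7%, 99.4%, 99.5%, 95.1%, 96.4% and 94.9% in the same order. Without thinning it was 99.6%, 98.7%, 99.5%, 95.8%, 98.2% and 98.8%. With at least 2 UMIs of each it was 94.7%, 90.5%, 90.2%, 73.2%, 72.2% and 68.5%, and with at least 3, 89.4%, 83.3%, 81.6%, 58.2%, 58.6% and 53.2%. In cells with no UMI of Ptprc it was 90.1% in E, 86.7% in M and 97.3% in Parental 4T1. The Vim share of the member UMIs was 44.2% in E in cells without Ptprc. As a mean over cells it was 89.5% in EM3, 79.2% in EM2, 78.0% in EM1, 76.6% in Parental 4T1 and 42.7% in E. Without cells with a UMI of Csn2, Elf5, Prlr or Wap it was 46.8% in E, 80.4% in EM2, 87.4% in M and 78.3% in Parental 4T1. The moves with depth and with the UMI limit follow from how the share is counted; the cause of the others was not tested. Krt6a and Krt5 are limited by few UMIs in few cells, at most 252 UMIs and at most 35 cells in any tumour.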
